A study of Sus scrofa with 6 samples.

Results

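The set described here is the porcine enzymes that act on drugs, other foreign compounds, steroids and vitamin D, as named by the array's own gene names. Probes were taken whose name began with CYP and a digit (cytochromes P450, without the sterol demethylase CYP51), UGT, GST, SULT, ALDH, or FMO and a digit. This gave 102 of the 43603 probes, for 42 gene names. A probe entered the tests if 3 or more of the 6 arrays flagged its signal as well above background, which kept 70 probes for 29 genes. No probe carried a UGT name, so the UDP-glucuronosyltransferases are covered only by a few probes named in other ways, at the end.

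The pigs were Large White animals 3 months old, and total RNA of the renal cortex of 6 kidneys was measured, with 1 array a kidney. The labels give each kidney of a group as from another pig. The 3 control kidneys were removed, sampled and frozen at once. The 3 ischemia kidneys stayed clamped for 60 min at 37 °C. They were then rinsed with a cold fluid for organ storage (University of Wisconsin solution) and stored at 4 °C for 24 h. These steps were applied together and none of the kidneys was reperfused, so the comparison is between fresh cortex and cortex after the whole sequence. Each of the 3 slides held 1 control and 1 ischemia array: control 1 with ischemia 2, control 2 with ischemia 3, and control 3 with ischemia 1. Controls were always at slide position 4 and ischemia samples at position 3, and this difference cannot be told apart from that of the groups.

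Cytochromes P450 are haem enzymes that oxidise lipophilic molecules with electrons from a reductase. The other families take these or similar molecules further: flavin monooxygenases (FMO) oxidise nitrogen and sulphur, aldehyde dehydrogenases (ALDH) turn aldehydes into acids, and glutathione transferases (GST), sulfotransferases (SULT) and glucuronosyltransferases attach a polar group that favours excretion. In kidney cortex the proximal tubule holds most of these enzymes, and it is also where the last step in forming active vitamin D takes place. RNA of a whole cortex sample does not separate fewer cells of a type from less RNA per cell.

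Signals are given as log2 of the processed spot signal minus the 75th percentile of the array, so that 0 is the 75th percentile and 1 unit is a factor of 2. Levels of different probes are not comparable with each other. Differences are ischemia minus control, in log2 units, with the standard error (SE) from limma. Adjusted p-values are limma's, by the Benjamini-Hochberg method over all 25017 probes tested. Between 52.6% and 61.4% of the spots were well above background on each array. Markers of cell types were also read: 9 proximal tubule genes of 15 listed were tested, among them SLC34A1 and SLC22A6. Of 9 collecting duct markers 5 were tested, and of 6 thick ascending limb markers 4. Detection alone therefore does not check the cortex label against medulla. Of 10 adrenal cortex markers 3 were tested, all dim: HSD3B1 and CYP11A1 were well above background on 6 arrays and NR5A1 on 4, whereas no array had STAR, MC2R or CYP17A1 well above background. Of 9 liver markers 5 were tested, 4 of them lower and 1 higher, where 58.8% of all gene names had a difference below 0. ALB, well above background on 3 arrays, read -4.54 to -3.42 in the controls and -6.04 to -4.53 in the ischemia kidneys. TTR differed by 2.57 ± 0.78 (SE), and no array had SERPINA1 well above background.

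None of the 29 enzyme genes passed an adjusted p of 0.05, against 1 of 25017 probes on the array (0.004% of all probes). At an unadjusted p under 0.05, 3 genes were lower and 2 were higher. Among the 18983 gene names taken with 1 probe each, 3.7% were lower and 2.73% higher at that limit. The 5 genes were GSTA1, GSTA2 and GSTT1 on the lower side and CYP4A21 and CYP4A24 on the higher side. The 2 GSTA genes share probe targets, as do the 2 CYP4A genes, so the 5 are not independent. Of the 29 genes, 19 had a difference below 0, or 65.5%, against 58.8% of all gene names. The median difference was -0.25, against -0.07 over all gene names.

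The spread of the members was wide. A difference of at least 1 in size was found for 9 of the 29 genes (31%), against 3.64% of all gene names. The 9 include the CYP4A and GSTA pairs, which share probe targets, and CYP2C42, not well above background in 2 ischemia kidneys. These 9 did not share a direction: CYP4A21, CYP4A24, CYP2A19 and SULT1E1 were above 0, and CYP27B1, CYP2C42, GSTA1, GSTA2 and GSTT1 were below 0. By family, the median was -0.25 for 18 CYP genes, -1.41 for 4 GST genes, 1.51 for 2 SULT genes, -0.33 for 3 ALDH genes and -0.05 for 2 FMO genes. Within slides, the median over the 29 genes was -0.54 on slide 1, -0.07 on slide 2 and -0.04 on slide 3. Scaling by the median of each array moved the median of all probes from -0.04 to 0.11. It also took the lower probes from 52.6% to 34% of all probes at an unadjusted p under 0.05, and quantile normalization took them to 41.8%.

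**Figure D1:**
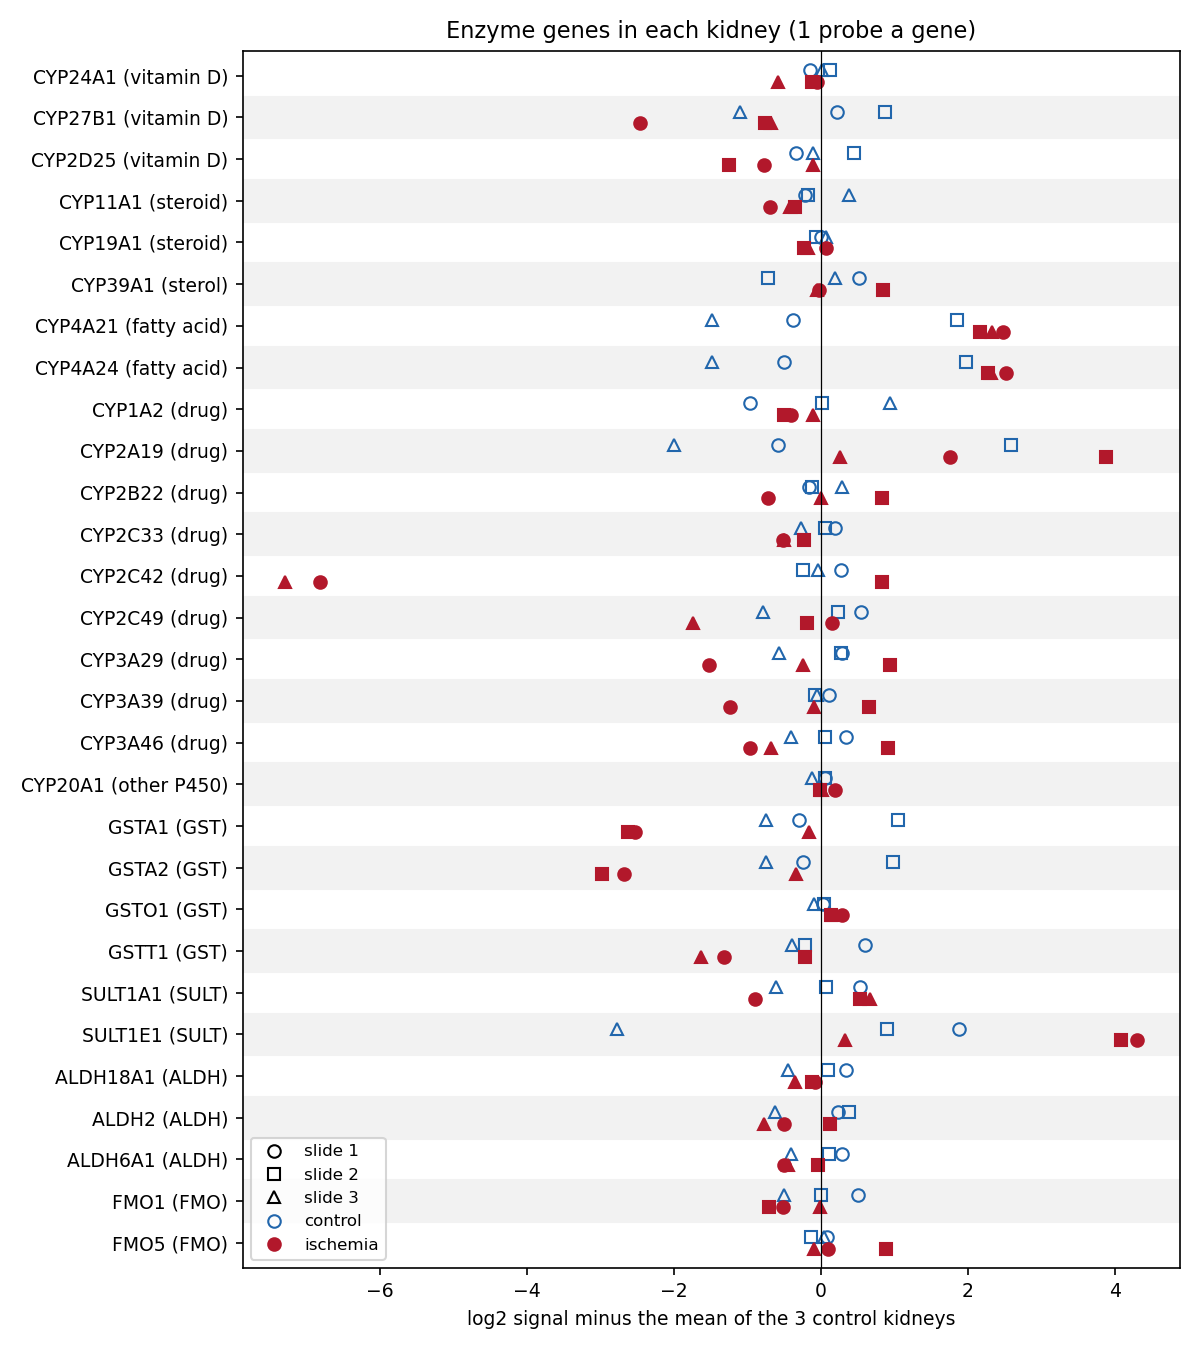
Each row is 1 of the 29 tested enzyme genes, and each symbol is 1 kidney, as log2 signal minus the mean of the 3 control kidneys; open blue symbols are control, filled red symbols ischemia, and the shape gives the slide. In CYP4A21 and CYP4A24 all ischemia kidneys lie to the right of all controls, and in CYP2C42 2 ischemia kidneys lie about 7 log2 units to the left.

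Proximal tubule markers were mostly lower in the ischemia kidneys. Of the 9 tested, 8 were lower and 1 higher, where 58.8% of all gene names were below 0. Their median difference was -0.64, against -0.25 for the 29 enzyme genes. At an unadjusted p under 0.05, 5 were lower and 1 higher (3.7% and 2.73% of all gene names). The summed level of the 9, on a linear scale where 1 is the 75th percentile of the array, was 869 to 1295 in the controls and 741 to 1092 in the ischemia kidneys. SLC22A6, an organic anion uptake carrier of the basolateral membrane, differed by -1.03 ± 0.36 (SE). G6PC, which releases glucose from glucose 6-phosphate, went the other way, by 0.95 ± 0.34. The part of tubule markers in the enzyme values was not tested.

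The sequences of 3 sets of probes bear on how the names can be read. The first set is CYP24A1, the mitochondrial P450 that breaks down active vitamin D. Its 3 probes gave unlike differences. The first and second are 60 bases long, lie over the same stretch, and differ at 4 bases, shown in capitals (G24A, A27G, C39T and T49C, counted from 1 at the 5′ end, first probe to second). Only a stretch of 30 bases of the third is shown. The files list the third probe for transcripts of 3 genes, CYP24A1, ITGB3 and RPL7L1, and 2 other probes on the array share a run of 20 bases with it. The files list the first for CYP24A1 alone, but its last 20 bases also occur in 3 probes that bear no gene symbol, besides the run it shares with the second.
CYP24A1 first probe: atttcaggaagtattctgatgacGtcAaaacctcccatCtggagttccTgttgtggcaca
CYP24A1 second probe: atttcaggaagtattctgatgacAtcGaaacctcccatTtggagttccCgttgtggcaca
CYP24A1 shared probe, 30 bases: cttgctcagtgggttaatgatctggcgttg

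The second set is CYP4A21 and CYP4A24, whose brightest probes overlap over 49 bases and differ there at 2, in capitals (A23G and C48A, counted from the start of the overlap, CYP4A21 to CYP4A24). The files list that CYP4A21 probe for transcripts of both genes. In RefSeq's Sscrofa11.1 annotation CYP4A21 is the 4th gene after CYP4A24 on chromosome 6. Cross-hybridisation between these 2 names cannot be separated from their own signal.
CYP4A21 probe, overlap: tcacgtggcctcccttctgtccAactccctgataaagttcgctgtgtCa
CYP4A24 probe, overlap: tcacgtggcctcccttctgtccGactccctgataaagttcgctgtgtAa

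The third set is the alpha-class glutathione transferases. The brightest probe named GSTA2 is listed in the files for 2 transcripts, and the 1 of these found in the gene table is GSTA1, so its signal belongs to the pair. No base is in capitals here.
GSTA2 brightest probe: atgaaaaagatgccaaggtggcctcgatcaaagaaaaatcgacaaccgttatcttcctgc

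Of the vitamin D enzymes, CYP24A1 had higher values on its first probe, and CYP27B1 and CYP2D25 had lower values. On the first CYP24A1 probe the controls read 2.26, 2.14 and 3.16 and the ischemia kidneys 4.92, 3.89 and 3.99. All ischemia values lay above all control values. The mean difference was 1.75 ± 0.38 (SE, n = 3 each), or 3.36-fold, with an adjusted p of 0.48 (limma). With slide as a block the adjusted p was 0.11 (limma), and the differences within slides 1, 2 and 3 were 1.63, 1.85 and 1.76. Leaving out any kidney gave 1.42 to 2.07, but the authors' deposited values gave a smaller difference of 0.96. The 3 probes without a symbol that hold its last 20 bases gave -0.19, -0.27 and -0.19, with SE of 0.50, 0.53 and 0.41.

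On the second CYP24A1 probe the controls read 2.38, 2.43 and 3.63 and the ischemia kidneys 4.32, 3.18 and 3.39. The groups overlapped, since control 3 was above ischemia 2 and 3. The difference was 0.81 ± 0.44, and within slides it was 0.80, 0.95 and 0.69. In the authors' deposited values it was 0.98, close to the 0.96 of the first probe there. The third and brightest probe, the one shared with other genes, read 10.57 to 10.85 in the controls and 10.14 to 10.67 in the ischemia kidneys, a difference of -0.25 ± 0.22 that changed sign under quantile normalization (0.02). By the rule of the brightest probe this shared probe stands for CYP24A1 in the counts above. With the first probe in its place, a choice made after the values were seen, 3 genes in place of 2 were higher at an unadjusted p under 0.05.

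CYP27B1, the 1-alpha-hydroxylase that makes active vitamin D, has 1 probe. The controls read -0.05, 0.61 and -1.36 and the ischemia kidneys -0.95, -2.72 and -1.03. Control 3 was the lowest control and lay below 2 ischemia kidneys. The difference was -1.30 ± 0.63, with an adjusted p of 0.85 (limma). Within slides it was -2.67, -1.63 and 0.42, so slide 3 went the other way. Leaving out a kidney gave -0.72 (without ischemia 2) to -1.84 (without control 3).

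CYP2D25 is a porcine P450 known for the first hydroxylation of vitamin D, and it has 3 probes. On the brightest, the controls read 6.03, 6.82 and 6.26 and the ischemia kidneys 6.26, 5.60 and 5.12. Ischemia 1 was level with the controls and the other two ischemia kidneys were below them. The 3 probes differed by -0.71, -0.78 and -0.96, and on the dimmest all ischemia values (2.81 to 4.17) lay below all control values (4.20 to 4.93), with an adjusted p of 0.77 (limma).

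Of 15 listed genes of vitamin D uptake and response, 9 were tested, with 4 lower and 5 higher. Of all gene names 58.8% had a difference below 0. At an unadjusted p under 0.05, 1 listed gene was lower (3.7% of all gene names). That was SLC34A1, the sodium-phosphate carrier of the proximal tubule, at -0.64 ± 0.27. GC, the vitamin D binding protein of plasma, differed by 3.01 ± 1.56. It read 3.41 in control 1 but -2.30 and -2.46 in controls 2 and 3, against 1.09 to 3.82 in the ischemia kidneys.

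Of the steroid-forming P450s, most were not detected. CYP17A1, which makes androgen precursors, CYP21A2, which makes corticosteroids, and the aromatase copies CYP19A2 and CYP19A3 were well above background on 0 or 1 array on any of their probes. CYP11A1, the side-chain cleavage enzyme that starts steroid synthesis, was dim. On its brightest probe the controls read -2.97, -2.92 and -2.36 and the ischemia kidneys -3.17, -3.44 and -3.09. The ischemia values all lay below the control values there, by 0.48 in the mean (-0.48 ± 0.24, adjusted p 0.85, limma). Its other tested probe, well above background on 3 arrays, gave -0.43 ± 0.40. On that probe the groups overlapped and ischemia 1 was the highest kidney (-3.38). Of all gene names, 5.42% had all ischemia values below all controls and 5.36% had all above, and of the 29 enzyme genes 1 and 3 did.

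CYP19A1, aromatase, read 2.04 to 2.17 in the controls and 1.87 to 2.17 in the ischemia kidneys on its bright probe, a difference of -0.11 ± 0.19 that turned positive under median centring. Its other probe was well above background on 1 array. Of the sterol enzymes, CYP39A1, an oxysterol 7-alpha-hydroxylase, gave 0.26 ± 0.39 and -0.17 ± 0.24 on its 2 probes. CYP7A1, the first enzyme of classic bile acid synthesis, was well above background only in controls 2 and 3 (-3.78 and -3.33), on 1 of its 2 probes. CYP8B1, which sets the bile acid mix, and CYP26A1, which breaks down retinoic acid, were not well above background on any array.

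The fatty acid P450s gave the highest differences of the tested P450s. CYP4A24 hydroxylates fatty acids at the omega end, and CYP4A21 is the porcine CYP4A enzyme of hyocholic acid formation in bile. CYP4A21 read 6.56, 8.79 and 5.46 in controls 1 to 3 and 9.26, 9.41 and 9.11 in ischemia 1 to 3. Control 2 was close to the ischemia level and the other two controls were well below it, while the ischemia kidneys lay within 0.31 of each other (9.11 to 9.41). The difference was 2.32 ± 0.75, or 5.01-fold, with an adjusted p of 0.68 (limma). With slide as a block the adjusted p was 0.37 (limma).

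CYP4A24 read 6.18, 8.66 and 5.19 in the controls and 8.99, 9.20 and 8.95 in the ischemia kidneys, a difference of 2.37 ± 0.79. On all 6 probes of the 2 names, ischemia lay above control, by 2.32 to 2.92. Within slides the CYP4A21 differences were 2.86, 0.31 and 3.80, so slide 2, with control 2, contributed little. Without control 2 the CYP4A21 difference was 3.25 (adjusted p 0.23, limma), and without control 3 it was 1.59. CYP4A24 kept an unadjusted p under 0.05 only without control 1, control 2 or ischemia 3. CYP4F2, another omega-hydroxylase, was well above background on 1 array only.

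**Figure D2:**
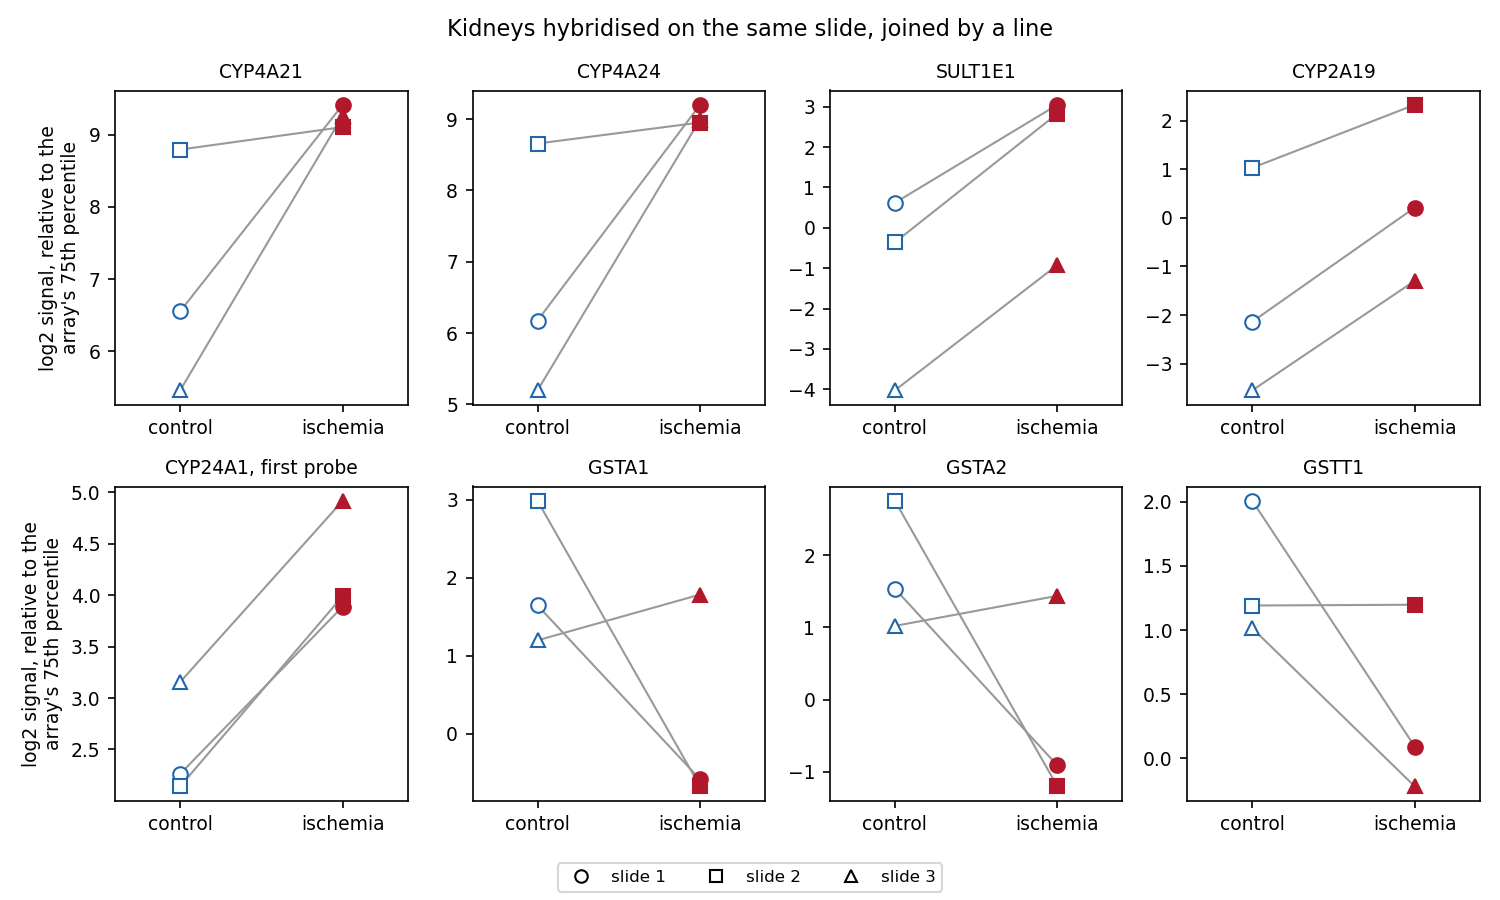
Each panel is 1 probe, with log2 signal relative to the 75th percentile of the array on the vertical axis, control kidneys as open and ischemia kidneys as filled symbols, and kidneys of the same slide joined by a line. SULT1E1, CYP2A19 and the first CYP24A1 probe are higher in the ischemia kidney of each slide, by 1.30 to 3.19; CYP4A21 is higher by 0.31 on slide 2 and by 2.86 and 3.80 on the others; GSTA1 and GSTA2 are lower on slides 1 and 2 and slightly higher on slide 3.

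Of the drug and foreign-compound P450s, 9 of 12 names were tested, with 7 lower and 2 higher. Of all gene names 58.8% had a difference below 0, and none of the 9 had an unadjusted p under 0.05. CYP2E1, which oxidises ethanol and small solvents, CYP1A1, the dioxin-responsive P450, and CYP2C32 under its own name were not detected on enough arrays. CYP1A2 and CYP2B22 were dim, with differences of -0.34 ± 0.45 and 0.04 ± 0.39. The sign of the latter turned under normexp background correction (-0.02).

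CYP2A19, the pig relative of the coumarin and skatole oxidase CYP2A6, varied widely from slide to slide. Its brightest probe read -2.14, 1.03 and -3.55 in the controls and -1.29, 0.21 and 2.33 in the ischemia kidneys. The groups overlapped widely, and the difference was 1.97 ± 1.29, with an adjusted p of 0.91 (limma). Leaving out a kidney gave 0.97 without control 3, 1.01 without ischemia 3 and up to 3.26 without control 2, and normexp gave 1.26. Within slides it was 2.35, 1.30 and 2.26. With slide as a block the SE was 0.27, with an adjusted p of 0.19 (limma). The 3 other tested probes gave 0.48, 1.05 and 0.68, so the probes differed by more than 1.

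CYP2C33 was lower by a small amount on all 6 of its probes, from -0.23 to -0.69. On its brightest probe the controls read 8.90, 8.76 and 8.43 and the ischemia kidneys 8.20, 8.19 and 8.47. Only control 3 and ischemia 3 overlapped, and the difference was -0.41 ± 0.21, with an adjusted p of 0.87 (limma).

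CYP2C42 was not well above background in 2 ischemia kidneys, and CYP2C49 was lowest in 1. CYP2C42 read 1.29, 0.78 and 0.97 in the controls and 1.84 in ischemia 3, but -6.27 and -5.79 in ischemia 1 and 2, where it was not well above background. Only 1 of 3 ischemia arrays therefore measured it, and its mean difference of -4.42 ± 1.97 (adjusted p 0.82, limma) averages over these unlike values. With normexp background correction it was -1.97. Without ischemia 3 neither ischemia value was well above background, so the size of the difference is not measured. The lowest log2 signal well above background was averaged over these 2 arrays, and the control mean was 76.1-fold above that average. That is not a strict lower bound, since brighter spots also went unflagged, such as a GSTA2 probe at -3.58 in ischemia 2. The fit to the measured values gave -7.04 without ischemia 3 (adjusted p 0.0063, limma), and without ischemia 1 it gave -2.99 (adjusted p 0.91, limma).

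CYP2C49 on 1 of its 3 probes, well above background on all 6 arrays, read 5.41, 5.32 and 3.45 in the controls and -2.27, 5.15 and 4.57 in the ischemia kidneys. Ischemia 1 stood apart, and the other two ischemia kidneys were within the control range. A second probe repeated this at -4.98 in ischemia 1, not well above background, against 0.75 to 2.91 in the others. The third and brightest, well above background on all 6, was also lowest in ischemia 1, at 2.51 against 3.46 to 4.80, so the 3 probes gave differences of -2.24, -2.19 and -0.59. Without ischemia 1 the difference on the brightest probe was -0.01. In the RefSeq annotation CYP2C42 is the 3rd gene after CYP2C49 on chromosome 14.

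The CYP3A enzymes, which oxidise many drugs and steroids in liver and gut, shared another pattern. CYP3A46 read 3.22, 2.95 and 2.48 in the controls and 2.20, 1.92 and 3.80 in the ischemia kidneys. Ischemia 3 was the highest of the 6 and ischemia 2 the lowest. CYP3A29 (1.06, 1.04 and 0.20 against 0.53, -0.75 and 1.71) and CYP3A39 (0.31, 0.12 and 0.15 against 0.10, -1.04 and 0.86) had the same highest and lowest kidney. Their mean differences were -0.24, -0.27 and -0.22, each smaller than its SE of 0.49, 0.59 and 0.45. CYP20A1, a P450 with no assigned substrate, read -0.07 to 0.10 in the controls and 0.03 to 0.24 in the ischemia kidneys.

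**Figure D3:**
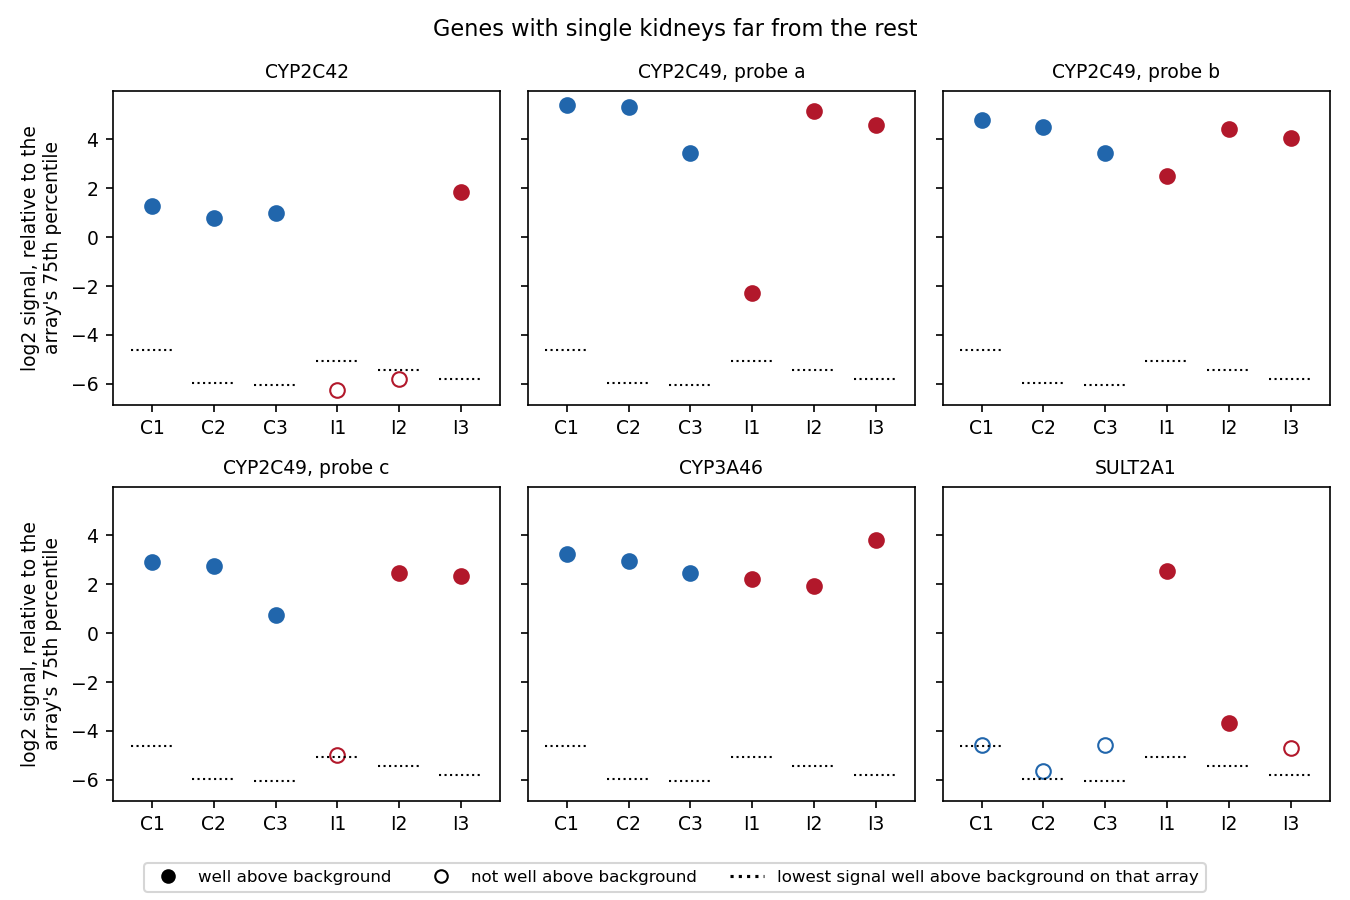
Each panel shows 1 probe over the 6 kidneys (C control, I ischemia) as log2 signal relative to the 75th percentile of the array; filled points were well above background, open points were not, and the dotted line is the lowest signal well above background on that array. These genes were chosen after their values were seen: CYP2C42 is near background in I1 and I2, CYP2C49 is lowest in I1 on 3 probes, and SULT2A1 is high in I1 alone.

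The 4 genes named GST had a median of -1.41, but 2 of them share a target, and with members named by description added the median was -0.12 over 12 genes. The alpha class, GSTA1 and GSTA2, conjugates peroxidation products and binds steroids. GSTA1 read 1.64, 2.99 and 1.20 in the controls and 1.78, -0.59 and -0.68 in the ischemia kidneys. Ischemia 1 was within the control range and the other two were below every control. The difference was -1.77 ± 0.74, or 3.41-fold lower, with an adjusted p of 0.78 (limma). Within slides it was -2.23, -3.67 and 0.59, and leaving out a kidney gave -1.25 (without control 2) to -2.58 (without ischemia 1). Without control 2, ischemia 2 or ischemia 3, neither GSTA1 nor GSTA2 kept an unadjusted p under 0.05.

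GSTA2 followed the same kidneys on its 3 probes, at -2.00, -3.15 and -2.61. On the brightest the controls read 1.53, 2.75 and 1.02 and the ischemia kidneys 1.44, -0.91 and -1.20. On the other two probes all ischemia values lay below all controls, but these were not well above background in 1 and 2 of the 3 ischemia kidneys. GSTT1, the theta-class enzyme for small halogenated compounds, read 2.01, 1.19 and 1.02 in the controls and -0.22, 0.09 and 1.20 in the ischemia kidneys. Here ischemia 3, not ischemia 1, was at the control level, and the difference was -1.05 ± 0.43, with an adjusted p of 0.78 (limma). Leaving out a kidney gave -0.75 to -1.47, with an unadjusted p under 0.05 only without control 3 or ischemia 3.

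GSTO1, the omega-class enzyme of dehydroascorbate and arsenic reduction, differed from these 3. It read 7.44 to 7.58 in the controls and 7.66 to 7.82 in the ischemia kidneys. The groups did not overlap, but the difference was small, at 0.19 ± 0.18. GSTO2, its close relative, was well above background on 1 array. Of 17 listed genes of glutathione supply and breakdown 9 were tested, 8 of them lower, with 1 lower at an unadjusted p under 0.05. Of all gene names 58.8% had a difference below 0 and 3.7% were lower at that limit. The 1 gene was ANPEP, a brush border aminopeptidase and also on the proximal tubule list, at -0.73 ± 0.28. GGT1, which starts glutathione breakdown at the same membrane, gave -0.81 ± 0.45.

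The sulfotransferases differed among themselves. SULT1E1, estrogen sulfotransferase, read 0.62, -0.36 and -4.03 in the controls and -0.92, 3.05 and 2.83 in the ischemia kidneys. Ischemia 1 was within the control range, and control 3 was far below all others. The difference was 2.91 ± 1.43 (adjusted p 0.85, limma), and within slides it was 2.43, 3.19 and 3.11. With slide as a block the SE was 0.24 and the adjusted p 0.058 (limma). Without control 3 the unblocked difference was 1.52, and without ischemia 1 it was 4.20.

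SULT1A1, the phenol sulfotransferase, gave 0.10 ± 0.48 and 0.07 ± 0.44 on its 2 probes. The 1 RefSeq transcript listed for each of these probes has the symbol SULT1A3 in the annotation, unlike the array's name. On the brighter probe the lowest value was in ischemia 2 (5.66) and the highest in ischemia 1 (7.23). SULT2A1, which sulfates hydroxysteroids and bile acids, could not be tested. On its brighter probe it read -4.57, -5.65 and -4.56 in the controls, where it was not well above background, and 2.52, -3.66 and -4.69 in the ischemia kidneys. Its other probe read 1.01 in ischemia 1 and -5.83 to -6.27 elsewhere. This was the same kidney in which CYP2C49 was lowest.

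The 3 aldehyde dehydrogenases had small negative differences. ALDH2, the mitochondrial enzyme for acetaldehyde, gave -0.20 to -0.61 on its 9 probes. On the brightest, the controls read 7.37, 7.51 and 6.51 and the ischemia kidneys 6.36, 6.62 and 7.26. Control 3 was at the ischemia level, and the difference was -0.38 ± 0.35. On 1 of the 9 probes control 1 had no value and the fit used the other 5 kidneys. ALDH6A1, of valine breakdown, gave -0.33 ± 0.26 and -0.45 ± 0.26, and ALDH18A1, of proline synthesis, -0.18 ± 0.25.

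The flavin monooxygenases were split. FMO1, the main renal form in many mammals, read 7.48, 6.97 and 6.47 in the controls and 6.97, 6.47 and 6.27 in the ischemia kidneys. The groups overlapped, and its 3 probes gave -0.41, -0.43 and -0.58. FMO5, which inserts oxygen into ketones, gave 0.30, 0.26 and 0.32 on 3 probes, with ischemia 3 the highest kidney on the brightest probe (1.24, against 0.22 to 0.45 in the others).

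**Figure D4:**
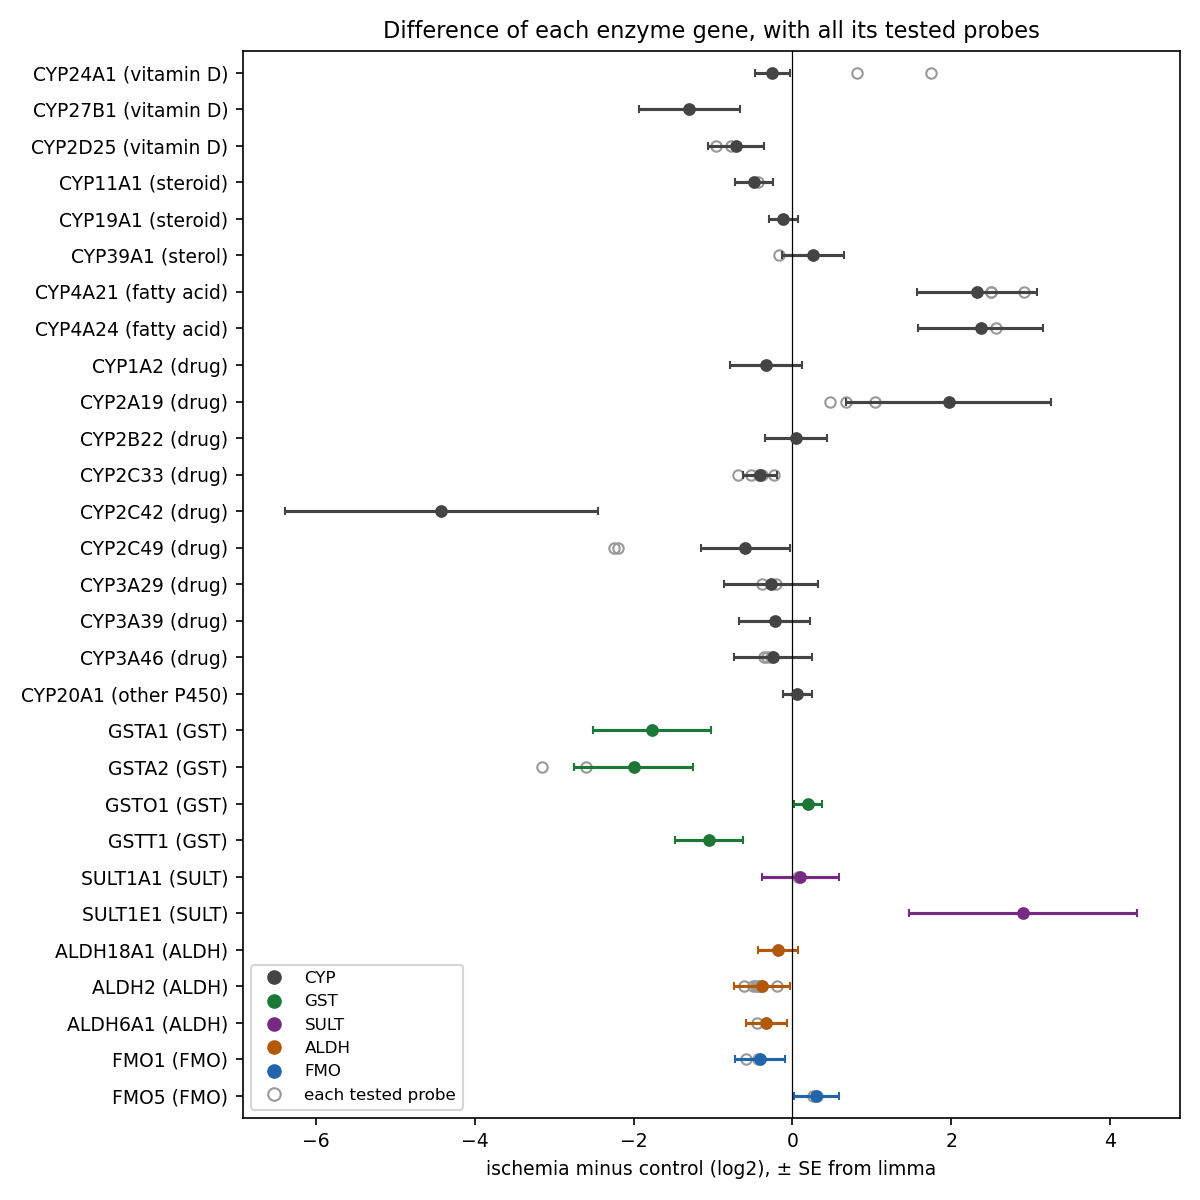
Filled points show ischemia minus control (log2) for the brightest probe of each of the 29 genes, coloured by family, with the SE from limma (n = 3 each); open grey circles show every tested probe of that gene. Probes of CYP24A1, CYP2A19, CYP2C49 and GSTA2 lie more than 1 log2 unit apart, and those of CYP4A21, CYP2C33 and ALDH2 stay close together.

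With slide as a block, 4 enzyme genes were lower and 4 higher at an unadjusted p under 0.05, against 6.6% and 3.29% of all gene names. The lower were CYP2C42, CYP2C49, GSTA2 and GSTT1, and the higher were CYP4A21, CYP4A24, CYP2A19 and SULT1E1. None passed the adjusted p of 0.05, and no probe on the array did with this block.

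At the detection limit, 2 tested probes were well above background on exactly 3 arrays, for CYP11A1 and CYP2A19, and 4 untested probes on exactly 2 arrays, for CYP7A1, SULT2A1, CYP2A19 and CYP1A1. A further 28 probes were above background on 0 or 1 array. No tested probe was measured in 1 group only.

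Members of these families under other names were sought by description or gene number, which gave 53 probes. Of these 40 were tested, and 3 had an unadjusted p under 0.05, against 3.31% of all probes lower and 2.99% higher. UGT1A6, which glucuronidates phenols, read 5.71 to 6.10 in the controls and 5.94, 6.38 and 4.88 in the ischemia kidneys on its brightest probe, with ischemia 3 lowest on all 3 probes. A glucuronosyltransferase fragment gave 0.96 ± 0.36. A glutathione transferase fragment gave -1.92 ± 0.75, with ischemia 1 at the control level (1.28, against 0.79 to 2.45 in the controls). Ischemia 2 and 3 read -1.18 and -1.31. This runs close to the brightest GSTA2 probe (1.44, -0.91 and -1.20 in the ischemia kidneys). Whether both read the same transcripts was not tested, so the fragment need not stand for a further gene.

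Some further P450 probes named by description gave patterns like those above. A probe described as CYP2C32 read -2.13 in ischemia 1 and 3.65 to 5.61 in the other 5 kidneys. A CYP2C19-like probe read -3.10 against 1.60 to 3.66. These run close to a CYP2C49 probe (-2.27 in ischemia 1). Whether they read the same transcripts was not tested, so they need not stand for further genes. CYP27A1, the sterol 27-hydroxylase, which also hydroxylates vitamin D, read 1.98, 1.66 and 0.85 in the controls. In the ischemia kidneys it read -0.46, 0.83 and 1.04, a difference of -1.03 ± 0.46. CYP2R1, another P450 that hydroxylates vitamin D, went the other way, by 0.36 ± 0.26. It was well above background on 6 arrays, and its groups overlapped (-2.05 to -1.36 in the controls, -1.64 to -1.11 in the ischemia kidneys).

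The genes that serve these enzymes were taken from lists chosen with earlier results known. Of 5 tested electron donors of P450, 2 were lower and 3 higher, with none at an unadjusted p under 0.05. POR, the reductase that feeds microsomal P450s, gave 0.36 ± 0.34, and CYB5A, cytochrome b5, -0.29 ± 0.21. Of 14 tested nuclear receptors and sensors, 8 were lower and 6 higher (58.8% of all gene names were below 0), with 1 higher at an unadjusted p under 0.05 (2.73% of all gene names). That was NR1H4, the bile acid receptor FXR, which read 2.13, 1.88 and 1.82 in the controls and 2.74, 3.20 and 2.88 in the ischemia kidneys. Its groups did not overlap, and the difference was 1.00 ± 0.21, with an adjusted p of 0.47 (limma). NR1I3, the xenobiotic receptor CAR, gave -0.93 ± 0.42, with ischemia 3 at the control level (1.49).

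Of 17 other tested phase I and II enzymes, 10 were lower and 7 higher, with 3 lower and 2 higher at an unadjusted p under 0.05 (3.7% and 2.73% of all gene names, of which 58.8% had a difference below 0). CBR1, a carbonyl reductase, read 4.82 to 5.87 in the controls and 4.68 to 4.72 in the ischemia kidneys (-0.79 ± 0.30). Its groups did not overlap. Of 11 tested genes of steroid and sterol handling, 6 were lower and 5 higher, and none passed even the unadjusted limit. HSD11B2, which inactivates cortisol, gave -0.62 ± 0.31, and SRD5A2, a steroid 5-alpha-reductase, -2.02 ± 1.07, with its lowest value in ischemia 2 (-4.34). The 3 tested cofactor genes of conjugation, among them UGP2 (-0.18 ± 0.19) and the nucleotide-sugar carrier SLC35D1 (0.30 ± 0.23), had none at that limit.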

How the data were processed

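Total RNA was labelled with Cy3 and hybridised to 1 array of 43803 spots per kidney, per the labels. The deposited scanner values are spot intensity. Per the file headers, Agilent Feature Extraction 10.10.1.1 took off the background and a spatial trend in each array. The submitters' processing notes give version 11.5.1.1 of it, R 2.15.2, and limma. The authors also deposited a table of log2 values. Its scaling between arrays is not stated in the labels or headers, and it was used as an alternative alone.

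Control and outlier spots were removed, the processed signal was taken to log2, each array's 75th percentile was subtracted, and spots of a probe were averaged. Probes needed a value on at least 5 arrays. The test was limma's moderated one (version 3.58.1, R 4.3.3, two-sided, no covariates), checked on simulated data. An exact permutation test of 3 against 3 cannot give a p under 0.1. The number of arrays limits the precision.

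A gene is its brightest probe over all 6 arrays. Symbols of genes outside the set came from the array's names, accessions, gene numbers and descriptions, and 31396 of 43603 probes received none, so lists are covered in part. The text names CYP27B1 and CYP24A1. In each family it names the 3 genes with the smallest unadjusted p on each side and the 2 of highest signal, and any member past the adjusted limit or without overlap at a difference of at least 0.5. It also names any gene whose probes differ by more than 1, and 2 genes of each list. Other genes were named after their values were seen. A few genes that the rule names are not reported here. The members and lists were chosen with earlier results of these data known. Alternatives were other scalings, background corrections and filters, the deposited table, a block for slide or for sample number, a trended variance, outlier spots kept, each kidney left out, the mean of all probes, and added members.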

Additional observations from a re-analysis of the deposited data

How the results depend on the processing

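Each result was recomputed under 20 alternatives. Of the 29 genes, 17 kept the sign of their difference in all of them that gave a value. The 12 others were ALDH18A1, CYP19A1, CYP1A2, CYP20A1, CYP24A1, CYP2B22, CYP2C49, CYP39A1, CYP3A29, CYP3A39, CYP3A46 and SULT1A1. The cause of these shifts was not tested.

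Over all probes, the count past an adjusted p of 0.05 (limma) was 1. It was 11 with median centring, 3 with normexp, 3 with probes well above background on all 6 arrays and 3 with a variance trend. It was 0 with quantile normalization, with no filter, with slide as a block and with the replicate block, and 0 to 1 with a kidney left out. For the enzyme genes it was 0 except without ischemia 3, where it was 1 (CYP2C42, with both other ischemia values not well above background). The lower and higher enzyme genes at an unadjusted p under 0.05 were 3 and 2. They were 4 and 4 with slide as a block, and 2 and 2 with the replicate block. In the authors' deposited table they were 1 and 5, but it holds other probes for some genes. There CYP24A1 stood on its first probe, GSTA2 lacked its brightest probe and CYP2A19 was absent. The 1 lower gene was GSTA2, and the 5 higher were CYP24A1, CYP4A21, CYP4A24, GSTO1 and SULT1E1. With a kidney left out the lower ranged from 0 to 5 (0 without control 2 and without ischemia 2, 5 without control 3) and the higher from 1 to 3 (1 without control 3 and without ischemia 2). With members named by description added, or by gene number too (chosen after seeing the data), the lower were 5. Those 5 count the glutathione transferase fragment, which need not be a further gene. With these members the GST median moved from -1.41 to -0.12 and the SULT median from 1.51 to 0.10. Without a filter the SULT median was 2.91. With CYP24A1 on its first probe, also chosen later, the higher were 3.

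The median of the enzyme genes (-0.25) was -0.10 with median centring and -0.02 in the deposited table. Deviations from the group means correlated at -0.35, -0.17 and -0.05 for same-numbered kidneys, and at 0.34, 0.10 and 0.33 for kidneys on the same slide. Deviations sum to 0 within each group, so these values are not independent. They cannot decide whether same-numbered kidneys pair. Signal near background limits CYP2C42, CYP2A19, CYP11A1 and the dimmer GSTA2 probes.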
